A study of Mus musculus with 6 samples.

Results

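Emcn, Mcam, Selp and Tspan2 encode proteins of the cell surface that are known from endothelial cells, platelets or mural cells, and their transcripts were measured here in primary mouse embryonic fibroblasts (MEFs) that lacked Bahd1. These 4 genes were chosen by their symbols from a comparison table of 491 transcript clusters that the authors of the data had selected on differences between Bahd1-KO and Bahd1-WT MEFs, out of 23332 clusters measured. That table rests on the same 6 arrays, so the differences between the genotypes given below describe the 4 genes and were not tested. Bahd1-KO MEFs came from 3 embryos with total ablation of the BAHD1 gene and Bahd1-WT MEFs from 3 wild-type embryos, all of the C57BL/6 strain and all at E13.5, from crosses of Bahd1+/- mice, with 1 array for each embryo. The tissue was the whole embryo without its head, processed separately for each embryo. Per the methods, frozen stocks were expanded over a single passage before use, which gave more cells and was also meant to leave behind cells unable to proliferate. The labels name no other treatment.

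The wall of a blood vessel is lined by endothelial cells and wrapped by mural cells, which are pericytes around capillaries and smooth muscle cells around larger vessels. Leukocytes and platelets attach to the lining through surface receptors, among them the selectins and adhesion molecules of the immunoglobulin superfamily, while mucin-like glycoproteins can hold them off. Fibroblasts share the mesenchymal origin of many mural cells, and several mural cell genes are also expressed in cultured fibroblasts. BAHD1 is known as a chromatin protein that helps to compact chromatin and to silence genes.

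The deposited values are log2 levels per transcript cluster on Mouse Exon 1.0 ST arrays after RMA, a method that removes background signal, brings the arrays to a common distribution and combines the probes of a cluster into 1 value. The array medians lay between 5.01 and 5.06, and Pearson's r across clusters was 0.9855 to 0.9896 between arrays of a genotype and 0.9838 to 0.9885 between arrays of different genotypes. Pairs with Bahd1-WT array 3 had the lowest values, 0.9838 to 0.9860, and every other pair had 0.9868 or more. The files name the 491 clusters only, so Bahd1 itself, which is not among them, was not analysed here. Of the genes on the Y chromosome, Ddx3y, Eif2s3y and Kdm5d averaged 7.06 and 7.03 on Bahd1-KO arrays 2 and 3 and 2.38 on Bahd1-KO array 1, against 7.19 on Bahd1-WT array 2 and 2.36 and 2.38 on Bahd1-WT arrays 1 and 3, so the genotypes differed in how many arrays carried this signal. The number of arrays limits the precision of every value.

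The 250 bases before the transcription start of each gene show how unlike the 4 promoters are in base composition. They are given 5′ to 3′ from RefSeq (build GRCm38.p6), all on the + strand of chromosomes 3 (Emcn and Tspan2), 1 (Selp) and 9 (Mcam), and capitals mark matches to the motifs named after them.

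Emcn, chr3:137340828-137341077: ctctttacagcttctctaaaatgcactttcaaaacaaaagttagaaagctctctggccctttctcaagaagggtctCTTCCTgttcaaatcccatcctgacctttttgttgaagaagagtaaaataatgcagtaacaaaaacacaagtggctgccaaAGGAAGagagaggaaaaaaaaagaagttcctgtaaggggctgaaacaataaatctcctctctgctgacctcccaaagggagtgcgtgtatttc
Selp, chr1:164115014-164115263: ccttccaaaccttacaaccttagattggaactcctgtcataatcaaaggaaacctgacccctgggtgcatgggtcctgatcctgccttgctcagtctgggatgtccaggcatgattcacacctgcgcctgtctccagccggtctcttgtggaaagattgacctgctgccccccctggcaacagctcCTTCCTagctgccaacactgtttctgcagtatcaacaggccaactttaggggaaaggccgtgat
Mcam, chr9:44134408-44134657: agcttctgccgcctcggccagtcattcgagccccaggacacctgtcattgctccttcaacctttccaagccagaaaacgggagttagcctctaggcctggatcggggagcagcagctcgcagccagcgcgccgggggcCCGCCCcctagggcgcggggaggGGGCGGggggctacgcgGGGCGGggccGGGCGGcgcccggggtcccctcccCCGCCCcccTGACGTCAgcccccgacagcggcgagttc
Tspan2, chr3:102734520-102734769: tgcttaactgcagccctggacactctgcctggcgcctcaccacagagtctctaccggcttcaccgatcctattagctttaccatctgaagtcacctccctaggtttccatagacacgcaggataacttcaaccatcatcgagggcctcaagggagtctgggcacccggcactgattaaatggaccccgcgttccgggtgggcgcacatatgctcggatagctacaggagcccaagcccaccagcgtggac

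The Mcam window had 73.6% G and C and 25 CpG dinucleotides, more CpG than 89.3% of the 32851 promoter windows of the table, whose median was 52.4% and 6 CpG. Emcn stood at the other end, with 40.8% G and C and 1 CpG, and 7.87% of the windows had fewer. Selp, at 53.6% with 3 CpG, and Tspan2, at 57.2% with 12 CpG, lay between them. Tspan2 has 2 start sites in the table and the window of the first was used. On either strand, Mcam held 5 GC boxes (GGGCGG), a motif found in 32.7% of all windows, and 1 cyclic AMP response element (TGACGTCA), found in 1.55%. Emcn held 2 ETS-type motifs (AGGAAG) and Selp 1, where 29.5% of all windows have at least 1. No match was found in the 4 windows to a GATA-type motif (AGATAA, in 9.99% of all windows), an AP-1 motif (TGACTCA, 4.46%), a TATA motif (TATAAA, 12.4%), the E-boxes CACGTG (6.02%) and CAGCTG (13.0%) or the CArG box that SRF binds (1.47%). Of the motifs searched, none occurred in all 4 windows, and the Tspan2 window held none of them.

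Emcn encodes endomucin, a mucin-like sialoglycoprotein of the venous and capillary endothelium that hinders the adhesion of leukocytes. Its level on the log2 scale was 6.14, 6.08 and 5.62 on Bahd1-KO arrays 1 to 3, against 4.93, 4.56 and 4.59 on Bahd1-WT arrays 1 to 3. All 3 Bahd1-KO values lay above the Bahd1-WT values, and the lowest Bahd1-KO array was 0.69 above the highest Bahd1-WT array. The level averaged 5.95 ± 0.29 in Bahd1-KO and 4.69 ± 0.21 in Bahd1-WT MEFs (SD, n = 3 each), a log2 difference of 1.25 (standard error 0.18 from limma) or 2.38-fold. The difference was 5.02 times the SD between arrays of a genotype. In a bulk culture, more cells of a type that expresses Emcn and more Emcn RNA per cell cannot be told apart, and this holds for the other 3 genes as well. The cluster summarises 269 probes over 251 kb, and the clusters of Mcam and Tspan2 span 12.6 and 67.0 kb. All 3 are longer stretches than the RefSeq genes cover, and which probes outside the genes enter the values is not known.

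Selp encodes P-selectin, which platelets and endothelial cells keep in granules and bring to the surface on activation, where it lets leukocytes roll. The log2 level was 6.17, 5.95 and 5.42 on Bahd1-KO arrays 1 to 3, against 4.91, 5.00 and 4.92 on Bahd1-WT arrays 1 to 3. The Bahd1-WT arrays lay within 0.08 of each other and the Bahd1-KO arrays within 0.75, so nearly all of the spread was among the Bahd1-KO arrays. The genotypes did not overlap, and Bahd1-KO array 3 came closest to the Bahd1-WT arrays with a gap of 0.42. The level averaged 5.85 ± 0.39 in Bahd1-KO and 4.94 ± 0.05 in Bahd1-WT MEFs (SD, n = 3 each). The log2 difference was 0.90 (standard error 0.20), which is 1.87-fold, and it was 1.12 without Bahd1-KO array 3 and 0.74 without Bahd1-KO array 1.

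Mcam encodes CD146, an adhesion molecule of the immunoglobulin superfamily found on endothelial cells, pericytes and smooth muscle cells. Its log2 level was 9.20, 9.28 and 9.42 on Bahd1-KO arrays 1 to 3, against 8.90, 8.93 and 8.49 on Bahd1-WT arrays 1 to 3. Here the spread was mostly among the Bahd1-WT arrays, where array 3 was low, and the gap between the genotypes was 0.27, the smallest of the 4 genes. The level averaged 9.30 ± 0.11 in Bahd1-KO and 8.77 ± 0.24 in Bahd1-WT MEFs (SD, n = 3 each), a log2 difference of 0.53 (standard error 0.14) or 1.44-fold. Without Bahd1-WT array 3 the log2 difference was 0.39.

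Tspan2 encodes a tetraspanin, a protein that crosses the membrane several times and organises other membrane proteins, known from oligodendrocytes in rodents and from vascular smooth muscle cells. The log2 level was 7.56, 7.63 and 7.77 on Bahd1-KO arrays 1 to 3, against 7.11, 7.11 and 7.21 on Bahd1-WT arrays 1 to 3. The arrays of each genotype lay close together and the gap between the genotypes was 0.35. The level averaged 7.65 ± 0.11 in Bahd1-KO and 7.14 ± 0.06 in Bahd1-WT MEFs (SD, n = 3 each). The log2 difference of 0.51 (standard error 0.08), or 1.43-fold, was thus as small as that of Mcam, but it was 5.92 times the SD between arrays of a genotype, against 2.80 times for Mcam and 3.28 times for Selp.

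**Figure D1:**
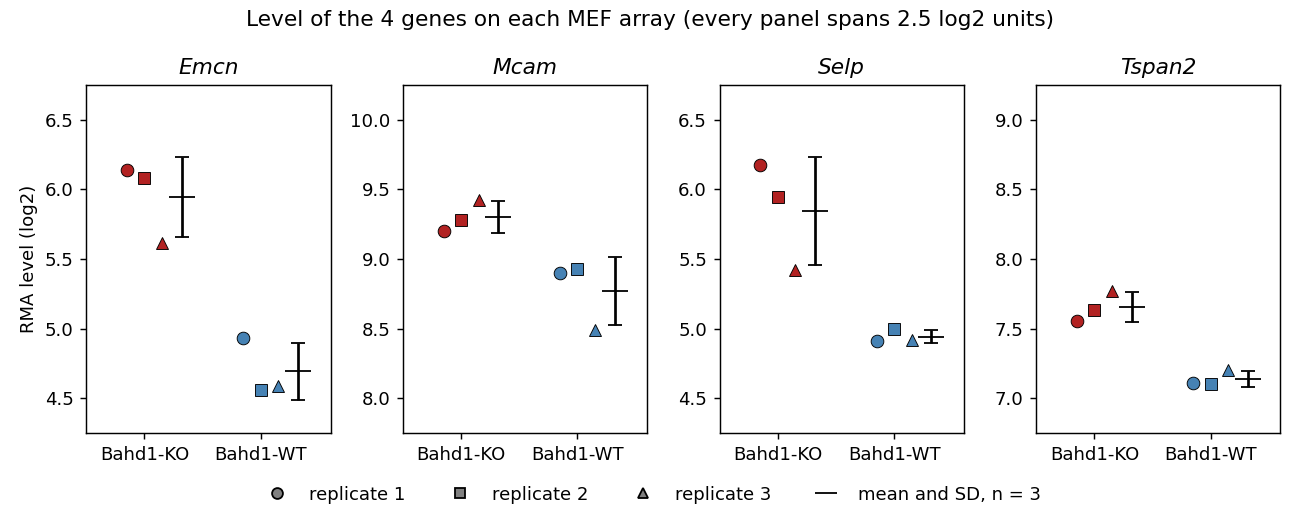
RMA level (log2) of Emcn, Mcam, Selp and Tspan2 on the 3 Bahd1-KO arrays (red) and the 3 Bahd1-WT arrays (blue), with a symbol for each replicate number and bars for mean and SD (n = 3). In each panel all Bahd1-KO arrays lie above all Bahd1-WT arrays, by a gap of 0.27 for Mcam to 0.69 for Emcn.

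For all 4 genes, every Bahd1-KO array lay above every Bahd1-WT array, which 11.4% of all 23332 clusters also showed. Since the table was selected on this contrast, nothing can be read from the count of 4. When limma was fitted to all clusters with Benjamini-Hochberg adjustment, 0 clusters (0%) were called at an adjusted p under 0.05, the 4 genes included, and the smallest adjusted p was 0.222. At an unadjusted p under 0.05 there were 2425 clusters, and an LPE test rebuilt from its description called 382, with 207 higher and 175 lower. The authors' table holds 491, with 354 higher and 137 lower, so the rebuilt test did not reproduce it. Which clusters both share was not examined. By size of the log2 difference, Emcn was at place 8, Selp at 30, Mcam at 172 and Tspan2 at 188 among the 354 named clusters that were higher in Bahd1-KO MEFs. With the mean of these 3 Y chromosome genes in the fit, the log2 difference was 1.33 for Emcn, 0.97 for Selp, 0.47 for Mcam and 0.50 for Tspan2, close to the values without it.

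The 4 genes formed pairs by which Bahd1-KO array was high. Emcn and Selp were highest on Bahd1-KO array 1 and lowest on Bahd1-KO array 3, by 0.19 above and 0.33 below their Bahd1-KO mean for Emcn and by 0.33 above and 0.43 below it for Selp. Mcam and Tspan2 showed the opposite, with Bahd1-KO array 3 at 0.12 above the mean for both and Bahd1-KO array 1 at 0.10 below it for both. Bahd1-KO array 2 lay between the others for each of the 4 genes. Bahd1-KO array 1 was also the only Bahd1-KO array with a low level of the Y chromosome genes. The part of this in the pairs was not tested. The order of Emcn and Selp was found in 13.3% of the 354 named clusters that were higher in Bahd1-KO MEFs and in 20.0% of all clusters. That of Mcam and Tspan2 was found in 41.8% of those named clusters and in 15.8% of all clusters. On the Bahd1-WT arrays the pairs did not hold. Emcn was highest on Bahd1-WT array 1, Selp and Mcam on array 2 and Tspan2 on array 3.

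How far arrays of a genotype lay apart can be set against clusters of like brightness, a measure that does not use the difference between the genotypes. Mcam had an SD of 0.19 within a genotype, larger than in 89.1% of the 1001 clusters nearest to it in mean level, whose median SD was 0.09. Selp had an SD of 0.28 and Emcn of 0.25, larger than in 74.5% and 67.9% of their nearest 1001 clusters. Tspan2, with an SD of 0.09, was less variable than most of its neighbours in level and exceeded 34.3% of them. The mean level of Emcn and Selp over the 6 arrays was near the middle of all clusters, above 52.9% and 53.6% of them, that of Tspan2 was above 74.6% and that of Mcam above 90.5%. Brightness depends on the probes of a cluster as well as on its RNA, so these places do not order the amounts of RNA. The place of Emcn in the order of all clusters was above 58.7% of them on the Bahd1-KO arrays and above 47.0% on the Bahd1-WT arrays.

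**Figure D2:**
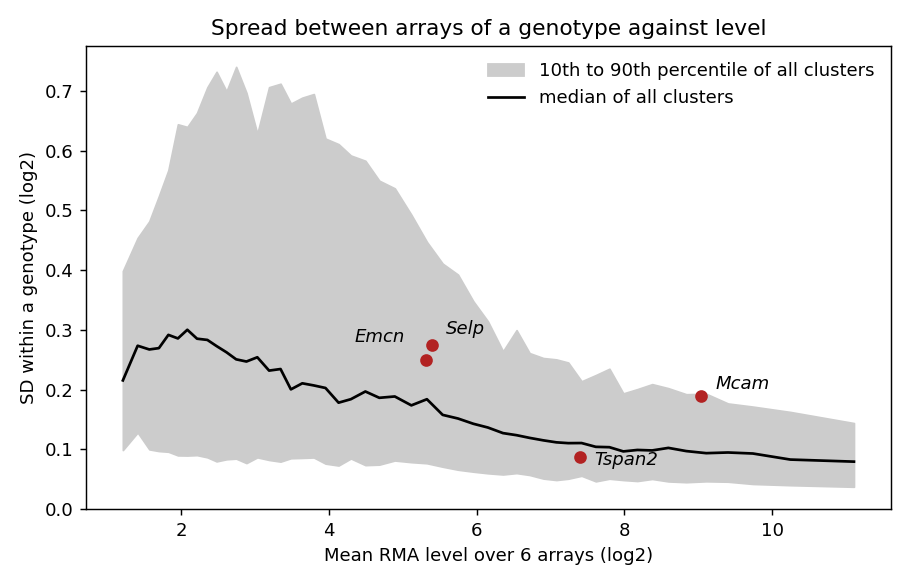
SD between arrays of a genotype (log2, vertical axis) against mean RMA level over the 6 arrays (log2, horizontal axis), with the median (line) and the 10th to 90th percentile (grey) of all 23332 clusters in bins of level, and the 4 genes in red. Mcam, at an SD of 0.19, lies near the upper edge of the grey band and Tspan2, at 0.09, below the line.

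The named genes most like each of the 4 were found by the root mean square distance over the 6 arrays between profiles centred on each gene's mean, where 0 would be the same profile. Mcam had the closest companions, with Ptgs2, which encodes cyclooxygenase-2, at a distance of 0.04 and Inhba, the beta A subunit of activin, at 0.05. Both genes shared with Mcam the low value on Bahd1-WT array 3. That array had the lowest correlations with the others, and the share of clusters that are low on it was not counted. The low value is therefore not shown to be particular to these genes. Ptgs2, for example, was at 10.86, 11.01 and 11.04 on Bahd1-KO arrays 1 to 3, against 10.60, 10.58 and 10.14 on Bahd1-WT arrays 1 to 3. Nearest to Tspan2 were Ccdc86, at 0.06, Rrp8, a nucleolar methyltransferase of ribosomal RNA, at 0.07 and Acta1, the actin of skeletal muscle, at 0.07.

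The companions of Emcn and Selp were farther away. Emcn was nearest to Areg, a ligand of the EGF receptor, at 0.18, Bex1 at 0.18 and Ccdc68 at 0.19. Selp was nearest to Tnni1, the troponin I of slow skeletal muscle, at 0.15, Bex1 at 0.15 and Atp1b1, a subunit of the sodium pump, at 0.15. Bex1, a small gene of the X chromosome, was thus close to both, with 6.88, 6.70 and 6.39 on Bahd1-KO arrays 1 to 3, against 5.45, 5.52 and 5.62 on Bahd1-WT arrays 1 to 3. Among the 4 genes, Selp was the sixth nearest of 490 named genes to Emcn, at 0.23, while Mcam and Tspan2 were at 0.17 from each other and 172 named genes were closer to Mcam than Tspan2 was. The distances grow with the size of a difference, so those of Emcn and Selp are not comparable with those of Mcam and Tspan2. Nor are the places in order, since fewer named genes had differences as large as those of Emcn and Selp. From deviations from each genotype mean alone, the distance was 0.15 between Emcn and Selp and 0.17 between Mcam and Tspan2. All of these genes come from the same table of called clusters, so that they differ between the genotypes is given by how they were selected.

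**Figure D3:**
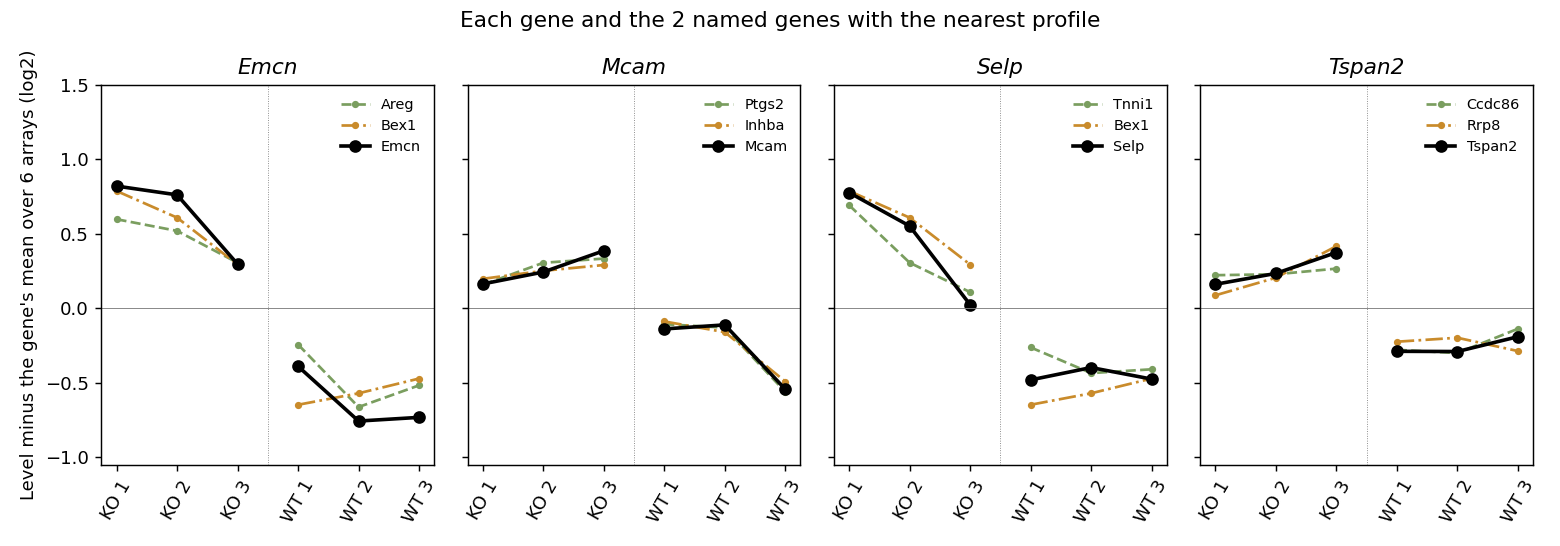
Level minus the gene's own mean over the 6 arrays (log2, vertical axis) on each Bahd1-KO and Bahd1-WT array (horizontal axis), for the 4 genes in black and for each the 2 named genes with the nearest profile in colour. Lines join the arrays of a genotype only to make a profile visible, and Bahd1-KO array 3 is the lowest Bahd1-KO array for Emcn and Selp and the highest for Mcam and Tspan2.

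Other genes of vessels, platelets and the families of the 4 proteins could be looked up only where the files name them, which is 2.10% of all clusters. These named clusters were selected on the same contrast, so every Bahd1-KO array lay above every Bahd1-WT array in 59.7% of them and below in 17.3%, against 11.4% and 6.64% of all clusters, and nothing about a list can be read from how many of its named genes did not overlap. Of 22 other endothelial markers, Flt1, a receptor of VEGF, is the only one named. It was at 7.74, 8.26 and 8.32 on Bahd1-KO arrays 1 to 3, against 7.76, 7.66 and 7.21 on Bahd1-WT arrays 1 to 3, so that Bahd1-KO array 1 lay within the range of the Bahd1-WT arrays. The log2 difference was 0.56 (standard error 0.22). Pecam1, Cdh5, Kdr and Tek, which define endothelial cells, are not among the named clusters and were not analysed here, so the label of the cultures could not be checked against them.

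Of 17 platelet and megakaryocyte markers, 3 are named, and they differed in direction. Ppbp, a platelet chemokine, was higher in Bahd1-KO MEFs by 0.80 (standard error 0.11), at 7.31 ± 0.12 in Bahd1-KO and 6.51 ± 0.15 in Bahd1-WT MEFs (SD, n = 3 each). Itgb3, the beta 3 integrin that platelets share with many adherent cells, was higher by 0.68 (standard error 0.19). Pf4, the other platelet chemokine, had a log2 difference of -0.65 (standard error 0.21), at 7.18 ± 0.33 in Bahd1-KO and 7.83 ± 0.25 in Bahd1-WT MEFs (SD, n = 3 each). In all 3 the arrays of the genotypes did not overlap, which held in one direction or the other for 77% of the named clusters and 18.1% of all clusters. Selp was higher in Bahd1-KO MEFs like Ppbp and Itgb3 and unlike Pf4. All were selected on this contrast, so nothing about platelets can be read from these directions.

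Of 16 mural cell markers, Des, Cnn1 and Lmod1 are named, and all 3 were higher in Bahd1-KO MEFs with no overlap of the arrays, as were 59.7% of all named clusters. Des, the intermediate filament protein of muscle and pericytes, was higher by 0.80 (standard error 0.14), Lmod1, an actin nucleator of smooth muscle, by 0.69 (standard error 0.15) and Cnn1, a calponin of smooth muscle, by 0.41 (standard error 0.09). The mean level of the 3 genes ran from 8.84 to 8.97 over the Bahd1-KO arrays and from 8.22 to 8.37 over the Bahd1-WT arrays. Mcam and Tspan2, which are known from mural cells, were higher in Bahd1-KO MEFs like these 3 markers, but so were Emcn, Selp and most named clusters. Of the 3 markers only Lmod1 rose from Bahd1-KO array 1 to 3, as Mcam and Tspan2 did. Des was highest on Bahd1-KO array 1 and Cnn1 was lowest on Bahd1-KO array 2. The part of mural cells in the differences was not tested.

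Of 30 other tetraspanins, Tspan7 and Tspan12 are named and both were higher, with no overlap of the arrays, again beside 59.7% of all named clusters. Tspan12 was at 6.44 ± 0.03 in Bahd1-KO and 5.85 ± 0.20 in Bahd1-WT MEFs (SD, n = 3 each), a log2 difference of 0.58 (standard error 0.12), close to that of Tspan2. Tspan7 had a log2 difference of 0.93 (standard error 0.38), with Bahd1-WT arrays at 4.19, 5.22 and 5.61 that were far apart. Among 16 selectins, mucins and vascular adhesion receptors only Vcam1, which binds leukocytes by their integrins, is named. It was higher by 0.41 (standard error 0.09), at 8.61 ± 0.11 in Bahd1-KO and 8.20 ± 0.10 in Bahd1-WT MEFs (SD, n = 3 each). Of 19 other adhesion molecules of the immunoglobulin superfamily, the family of Mcam, Vcam1, F11r and Cadm1 are named. F11r, the junctional adhesion molecule JAM-A, was higher by 0.40 (standard error 0.12), and Cadm1 by 0.32 (standard error 0.19) with arrays that overlapped between the genotypes.

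Markers of 2 other cell types were listed beside these. Of 18 macrophage and blood cell markers only Csf1r, the receptor of CSF1, is named, at 6.55 ± 0.24 in Bahd1-KO and 6.12 ± 0.06 in Bahd1-WT MEFs (SD, n = 3 each), higher by 0.43 (standard error 0.13). Of 14 fibroblast markers, Pdgfra and Lum are named, both bright, above 87.1% and 80.2% of all clusters, and both lower in Bahd1-KO MEFs with no overlap of the arrays, as were 17.3% of all named clusters and 6.64% of all clusters. Pdgfra, a PDGF receptor of mesenchymal cells, was at 8.33 ± 0.19 in Bahd1-KO and 8.88 ± 0.19 in Bahd1-WT MEFs (SD, n = 3 each), a log2 difference of -0.55 (standard error 0.14). Lum, a matrix proteoglycan, had a log2 difference of -0.59 (standard error 0.22). The mean of both ran from 7.73 to 8.10 over the Bahd1-KO arrays and from 8.35 to 8.85 over the Bahd1-WT arrays, and the part of the make-up of the cultures in the levels of the 4 genes was not tested. Over all 8 lists limma called 0 genes. The median log2 difference was 0.43 over the 491 named clusters and 0.02 over all clusters, and 354 of the named clusters were higher and 137 lower, so higher clusters made up most of those named.

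**Figure D4:**
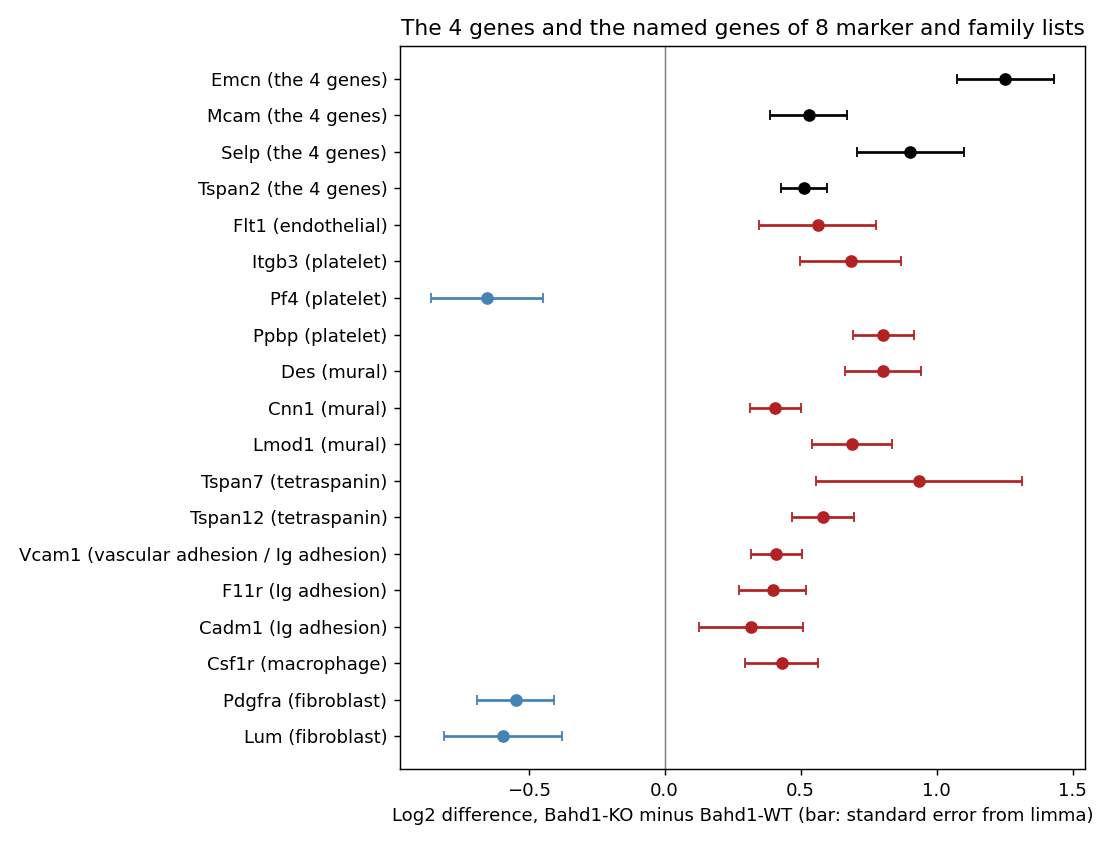
Log2 difference, Bahd1-KO minus Bahd1-WT (horizontal axis), with the standard error from limma, for the 4 genes (black) and for the 15 named genes of the 8 marker and family lists (red where higher and blue where lower in Bahd1-KO MEFs). Pf4, Pdgfra and Lum lie below 0, at -0.65, -0.55 and -0.59.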

How the data were processed

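RNA of MEFs, 3 Bahd1-KO and 3 Bahd1-WT, was hybridised to Mouse Exon 1.0 ST arrays. The deposited log2 values were derived by the authors with RMA at the gene core level, for 23332 transcript clusters, while the software version and genome build are not given in the sources used here. A second deposited table names 491 clusters that passed the authors' LPE test, with the same log2 values on each array (largest difference 0), and its columns of fold changes, p-values and SDs were not used. The replicates are separate embryos, and groups and replicate numbers come from the sample titles.

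Differences are Bahd1-KO minus Bahd1-WT means. Standard errors and calls come from limma (version 3.58.1, R 4.3.3; lmFit and eBayes) on all 23332 clusters, two-sided, with Benjamini-Hochberg adjustment and a threshold of 0.05. No filter was applied. This fit and the rebuilt LPE test, which pools the spread over 100 bins of brightness with a spline of 10 degrees of freedom, were tested on simulated data. The alternatives were a trended and robust prior, the brighter clusters alone (mean level above the median), quantile normalization a second time, centred arrays, group medians, the replicate number as a block, the Y-linked level as a covariate and each array left out in turn.

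Named genes are the 4 genes, the 3 nearest profiles of each, the named genes of 8 marker and family lists and the Y-linked genes, and 1 nearest profile is not reported here. The 4 genes and the lists were chosen with earlier results of these data known, and the motifs after the promoter sequences had been seen. The AP-1 motif was corrected to its consensus after matches to another spelling had been seen. Of the 491 symbols, 489 were found in RefSeq.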

Additional observations from a re-analysis of the deposited data

How the results depend on the processing

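The log2 differences of Emcn, Mcam, Selp and Tspan2 kept their sign and moved by less than the SD between arrays of a genotype under all 11 alternatives run for each. Since the arrays of the genotypes did not overlap, the sign could not change with an array left out, group medians or the replicate block. An array left out also could not move a difference by as much as that SD, so these outcomes were fixed in advance. The log2 differences ranged, with each array left out in turn, from 1.16 to 1.42 for Emcn and 0.39 to 0.61 for Mcam. They ranged from 0.74 to 1.12 for Selp and 0.45 to 0.56 for Tspan2. Group medians gave 1.49 for Emcn and 0.38 for Mcam. The count of 0 clusters called by limma stayed at 0 under the other alternatives and became 36 when only the 11666 clusters above the median brightness were tested and 382 with the rebuilt LPE test, which takes the spread from clusters of like brightness. The fit to the brighter clusters adjusted for fewer clusters and also estimated the spread from these clusters alone. Its standard errors were lower for all 4 genes, at 0.166 against 0.180 for Emcn. The cause of the change in count was not tested, for this fit or for the LPE test. The replicate block gave log2 differences of 1.25, 0.53, 0.90 and 0.51 in the order above, with 0 clusters called. These differences could not change, since every replicate number occurs in both genotypes. The correlations of deviations between same-numbered arrays were -0.001, 0.027 and 0, so these arrays shared no deviations across all clusters. Whether the numbers pair the arrays in another way is not given by the labels. The count of clusters with every Bahd1-KO array above every Bahd1-WT array was 2663 (11.4% of those tested). It was 2218 (9.51%) after a second quantile normalization, 2375 (10.2%) with centred arrays and 1968 (16.9% of 11666) among the brighter clusters. For every Bahd1-KO array below every Bahd1-WT array the counts were 1550, 1932, 1806 and 845 in the same order. All 4 genes were among the higher clusters each time. This could not be otherwise for the brighter clusters, whose values are unchanged, or for centred arrays, whose shifts are smaller than the gaps between the genotypes. The 3 arrays of a genotype and clusters with unequal probe numbers limit the precision.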
